A study of Mus musculus with 12 samples.

Results

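Antisense noncoding transcripts are RNAs made from the DNA strand opposite to another gene. The genes described here carry the antisense class in the deposited table, reached at least 1 CPM (reads per 1000000 counted reads of the library) in at least 3 of 12 libraries, and leave out Kcnq1ot1, Airn and names starting with Snhg. This gave 223 members of 2991 antisense genes, among 55487 genes in all. Of the other antisense genes 2764 stayed under that level, 1050 of them listed at 0 in every library, and 4 were left out by name. The members were thus selected on their CPM in these same libraries, and their presence is a description. Just inside the threshold, the value reached in 3 libraries was 1.00054 CPM for Runx2os1 and 1.00483 CPM for Gm48597. Just outside it was 0.978449 CPM for Gm49747 and 0.978057 CPM for Gm10785.

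The cells were a primary fibroblast line from the mammary fat pad of 1 healthy mouse of strain B6, and all groups are this line. The doxorubicin group received 100 nM doxorubicin, a DNA-damaging topoisomerase poison, for 24 h, and its vehicle group water; both were lysed on day 7. The peroxide group received 750 uM hydrogen peroxide for 2 h with 48 h of recovery, 3 times over, and its vehicle group water; both were lysed on day 6. The series describes the treated cells as senescent, that is, in lasting cell cycle arrest, and asks how they differ from normal cells. Only the vehicle cells are said to have been split, so treatment and passaging cannot be told apart. Each of the 4 groups held 3 libraries, which the labels do not describe as separate cultures, so the p-values cover the spread among the libraries alone, which may be technical.

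Antisense RNAs are often weakly expressed, and many start close to or inside the gene on the other strand. Some are known to act on that neighbour: in mice Tsix is transcribed across Xist, the RNA that silences an X chromosome in females, and limits it. Others carry small RNAs: Dnm3os contains the hairpins of Mir199a-2 and Mir214, microRNAs studied in fibroblasts and fibrosis. For most members with names such as Gm15987 no function is known, and the neighbour is given here only to say where they lie.

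The mature microRNAs within Dnm3os are shown because this transcript was the second most abundant member and was called higher after peroxide. They are from RefSeq (GRCm38.p6), on the plus strand, at chr1:162217844-162217866, chr1:162217883-162217904, chr1:162223397-162223418 and chr1:162223438-162223459 in the order listed. Capitals mark the seed, bases 2 to 8 from the 5′ end, and no seed is shared between the 4 arms.
miR-199a-5p: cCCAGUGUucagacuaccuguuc
miR-199a-3p: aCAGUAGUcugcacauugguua
miR-214-5p: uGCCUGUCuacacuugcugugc
miR-214-3p: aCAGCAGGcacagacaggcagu

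Promoter windows are shown for 6 members with a RefSeq entry that were among the largest called increases or decreases of a treatment or the largest called differences between the treatment effects (Gm12758 through the difference), and for Map2k3os, which shares its start region with a coding gene. Each runs from 250 bases before to 50 bases after the RefSeq start (GRCm38.p6), on the strand of the member. They lie at chr6:128974980-128975279 (minus strand), chr17:23748986-23749285 (plus), chr7:34234127-34234426 (plus), chr9:72409818-72410117 (minus), chr12:3235541-3235840 (plus), chr11:64079234-64079533 (plus) and chr11:60931818-60932117 (minus). Capitals mark matches on either strand to the core of interferon response elements (ISRE core: GAAA, any 2 bases, GAAA) or to TTCNNNGAA, a core of STAT sites.
Gm15987: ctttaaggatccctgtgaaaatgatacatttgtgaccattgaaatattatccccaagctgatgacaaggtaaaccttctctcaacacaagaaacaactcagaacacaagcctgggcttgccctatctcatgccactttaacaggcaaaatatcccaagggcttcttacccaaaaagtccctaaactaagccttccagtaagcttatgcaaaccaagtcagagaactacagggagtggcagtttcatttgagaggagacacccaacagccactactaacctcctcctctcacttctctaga
9530082P21Rik: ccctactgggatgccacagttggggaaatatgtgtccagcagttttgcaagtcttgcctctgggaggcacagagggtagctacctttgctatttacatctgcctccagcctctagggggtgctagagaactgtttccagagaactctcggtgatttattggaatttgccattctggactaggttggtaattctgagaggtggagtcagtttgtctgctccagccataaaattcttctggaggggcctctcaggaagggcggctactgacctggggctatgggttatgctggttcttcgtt
Gm12758: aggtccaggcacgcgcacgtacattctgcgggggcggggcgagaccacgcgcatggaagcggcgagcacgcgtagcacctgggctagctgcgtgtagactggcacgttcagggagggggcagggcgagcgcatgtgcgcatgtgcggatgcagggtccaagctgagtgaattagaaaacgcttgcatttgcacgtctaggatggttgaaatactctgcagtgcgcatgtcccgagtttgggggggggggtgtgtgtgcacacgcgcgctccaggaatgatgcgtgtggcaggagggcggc
BC065403: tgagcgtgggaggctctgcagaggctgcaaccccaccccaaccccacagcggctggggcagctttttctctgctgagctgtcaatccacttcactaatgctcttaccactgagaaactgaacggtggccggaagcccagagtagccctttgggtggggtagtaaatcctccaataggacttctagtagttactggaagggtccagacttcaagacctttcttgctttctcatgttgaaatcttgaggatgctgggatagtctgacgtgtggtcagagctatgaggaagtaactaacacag
Rab10os: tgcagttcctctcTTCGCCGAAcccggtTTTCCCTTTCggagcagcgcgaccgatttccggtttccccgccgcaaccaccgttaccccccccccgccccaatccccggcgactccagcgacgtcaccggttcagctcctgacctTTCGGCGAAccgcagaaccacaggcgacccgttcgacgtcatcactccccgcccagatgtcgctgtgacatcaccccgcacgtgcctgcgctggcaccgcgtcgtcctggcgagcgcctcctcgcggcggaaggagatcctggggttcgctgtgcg
2810001G20Rik: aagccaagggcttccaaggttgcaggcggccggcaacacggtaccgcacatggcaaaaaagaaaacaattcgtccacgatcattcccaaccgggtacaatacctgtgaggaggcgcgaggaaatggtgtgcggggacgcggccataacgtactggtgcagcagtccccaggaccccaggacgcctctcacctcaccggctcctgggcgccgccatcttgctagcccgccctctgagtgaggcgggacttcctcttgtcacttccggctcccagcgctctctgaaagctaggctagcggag
Map2k3os: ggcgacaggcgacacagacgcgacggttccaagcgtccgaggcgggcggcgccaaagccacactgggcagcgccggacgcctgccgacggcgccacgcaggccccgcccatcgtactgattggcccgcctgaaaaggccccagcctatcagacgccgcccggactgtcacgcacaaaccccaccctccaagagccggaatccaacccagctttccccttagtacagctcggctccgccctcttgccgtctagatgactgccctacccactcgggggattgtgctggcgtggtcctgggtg

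A match is a description of letters only. The Rab10os window held 1 match to the ISRE core and 2 to TTCNNNGAA, without overlap, and the other 6 windows held none. The ISRE core was found in 3.44% of 32851 RefSeq promoters and in 4 of the 138 entries of members (105 members had an entry), and TTCNNNGAA in 8.30% and in 7 of 138. A further motif, the CArG box bound by serum response factor, was found in 1.63% of promoters and in 1 of 138 entries, that of Dnm3os. CG dinucleotides numbered 0 in the window of Gm15987, 3 in 9530082P21Rik, 5 in BC065403, 22 in 2810001G20Rik, 27 in Gm12758, 30 in Map2k3os and 39 in Rab10os. The RefSeq start lay downstream of the GENCODE start by 6002 bases for 9530082P21Rik, 287 bases for Rab10os and 78 bases for BC065403, and at the same base for the others. The window of Map2k3os shared 286 bases with that of Map2k3, whose start lies 187 bases away on the other strand.

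Estimated depth was 21.5 to 37.6 M reads in doxorubicin libraries, 19.5 to 21.9 M in their vehicle libraries, 21.4 to 32.4 M in peroxide libraries and 17.3 to 20.99 M in theirs, and 3 reads were worth 0.0798 to 0.173 CPM. Peroxide replicate 2, doxorubicin vehicle replicate 3 and doxorubicin replicate 1 stood apart from the others of their groups on the second principal component (23.7% of the variance). All 10 fibroblast markers passed the level filter, and 6 of 6 epithelial markers did not. Of the other lists, Tek (endothelial), Cd68, Csf1r and Lyz2 (leukocyte) and Adipoq, Fabp4 and Lpl (adipocyte) passed it. Pecam1, Cdh5 and Kdr (endothelial), Ptprc, Adgre1 and Cd3e (leukocyte) and Cidec, Plin1 and Lep (adipocyte) did not. The 4 endothelial markers summed to 34.0 to 44.4 CPM after doxorubicin against 12.4 to 16.1 CPM in vehicle, and to 22.1 to 27.3 CPM after peroxide against 5.57 to 9.19 CPM in vehicle. The 6 leukocyte markers summed to 27.1 to 32.6 CPM after doxorubicin against 11.1 to 17.7 CPM in vehicle, and to 23.2 to 26.2 CPM after peroxide against 16.3 to 17.4 CPM in vehicle. The 6 adipocyte markers summed to 1392 to 1482 CPM after doxorubicin against 2237 to 2441 CPM in vehicle, and to 2091 to 2194 CPM after peroxide against 977 to 1174 CPM in vehicle. The part of other cell types in the results below was not tested, and in bulk RNA fewer cells making a transcript and less of it per cell cannot be told apart.

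More members rose than fell after peroxide, and nearly as many fell as rose after doxorubicin. Changes are differences of mean log2(CPM + 1), tested with limma over all 13280 genes at the same level, and called at a Benjamini-Hochberg adjusted p below 0.05. After doxorubicin 36 of 223 members were higher (16.1%) and 30 lower (13.5%), beside 22.1% and 27.8% of all tested genes. After peroxide 71 members were higher (31.8%) and 17 lower (7.62%), beside 27.3% and 23.4% of all tested genes. The share higher after peroxide was thus close to the background, while the share higher after doxorubicin and both shares lower were under it. Members were scarcer than the tested genes, with a median CPM of 1.5 against 16.3. The added 1 CPM makes changes of scarce genes smaller, and shares at matched levels were not compared. The gaps are therefore no result about the antisense class, and counts under a filter of 5 CPM are given below. The median change of the members was 0.00 after doxorubicin, beside -0.03 over all tested genes, and 0.24 after peroxide, beside -0.01. Without doxorubicin replicate 2, the number lower after doxorubicin was 19. The level rule shaped part of these counts: 20 members reached 1 CPM in treated libraries only, 6 in vehicle libraries only and 5 in a single group, so the groups where they were high decided their membership. Of those named, Atad3aos, Dhx58os, Egfros, Gm11131, Gm15987, Pard3bos3 and Tnfsf13os reached it in treated libraries only, and Bach2os and Gm48342 in vehicle libraries only. For these members the level rule and the tests used the same values, so adjusted p-values given for them are descriptions, not support. With libraries scaled by median-of-ratios factors, 40 members were higher and 22 lower after doxorubicin, and 69 and 18 after peroxide. Shares of all tested genes under that scaling are not given here.

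**Figure D1:**
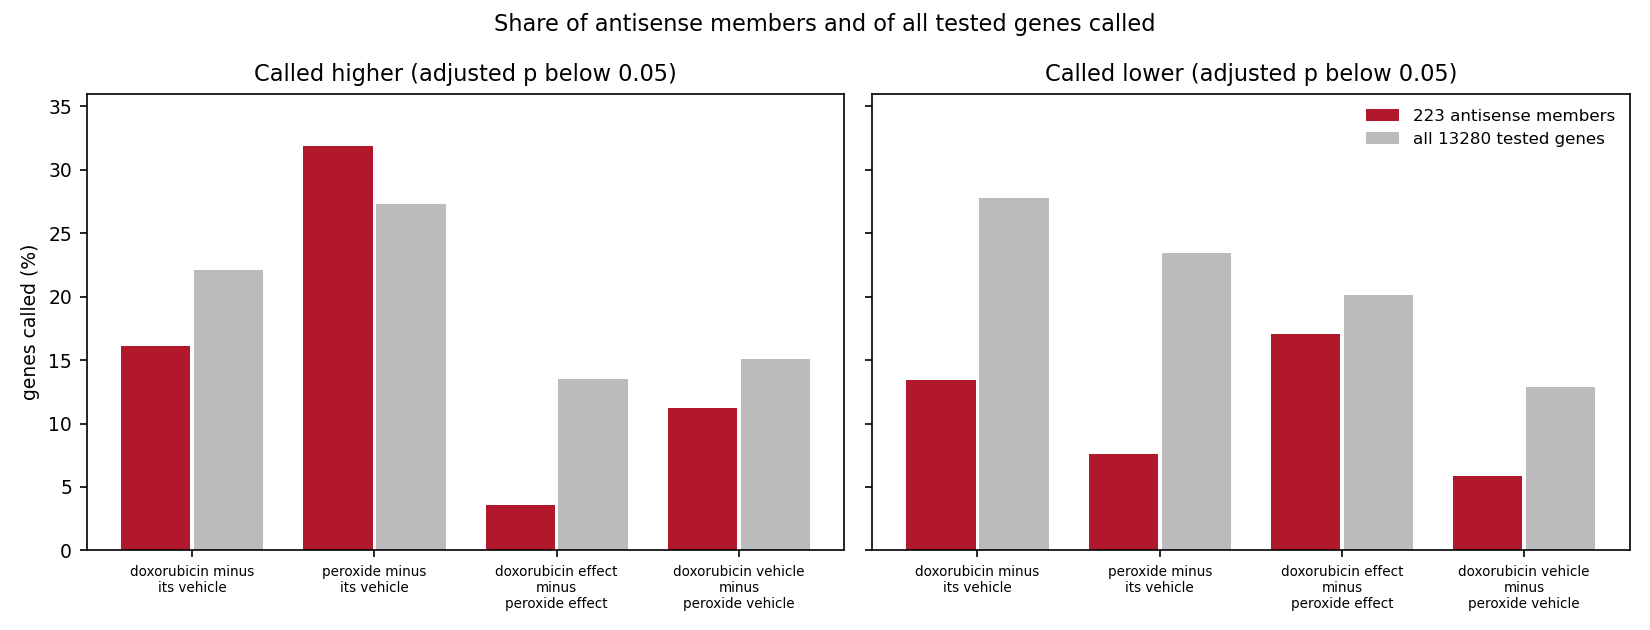
Percentage called higher (left) and lower (right) among the 223 antisense members (red bars) and all 13280 tested genes (grey bars), for each of 4 comparisons. The red bar stands above the grey one only for genes higher after peroxide, 31.8% against 27.3%.

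Library by library, all 3 peroxide libraries lay above all 3 vehicle libraries for 85 members and below them for 27, beside 30.7% and 29.3% of all tested genes. For doxorubicin the numbers were 41 above and 43 below, beside 26.1% and 33.6%. The CPM of all members summed to 1351, 1263 and 1472 in peroxide libraries, against 1040, 1024 and 1035 in their vehicle libraries, which did not overlap. It summed to 1168, 1075 and 1114 in doxorubicin libraries, against 1137, 1195 and 1263 in theirs, which overlapped. Without the most abundant pair, Gm47428 and Dnm3os, which made up 22.8% and 18.6% of the sum, the totals were 781 to 788 CPM after peroxide against 640 to 656 CPM in vehicle, and 650 to 679 CPM after doxorubicin against 650 to 672 CPM in vehicle. The long intergenic RNAs of the table, another noncoding class, summed to 6744 to 9358 CPM after peroxide against 3851 to 4246 CPM in vehicle, and to 5964 to 6624 CPM after doxorubicin against 4167 to 5148 CPM in vehicle.

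In both comparisons 28 members were called higher (13% of all tested genes) and 7 lower (13.5%). The 28 were 77.8% of the members higher after doxorubicin and 39.4% of those higher after peroxide, beside 58.9% and 47.6% over all tested genes. No member was higher after doxorubicin and lower after peroxide (1.04% of all tested genes). The reverse held for 5 members (2.56%), named here after their values were seen: Chrna1os, Gm15559, 0610038B21Rik, Gm9936 and Gm47093. Of the rest, 26 members were called for doxorubicin and not peroxide (19.8% of all tested genes), 48 for peroxide and not doxorubicin (20.6%), and 109 for neither (29.5%). Across the 223 members, which are not independent, the changes after the treatments correlated at r = 0.55 (rho = 0.45), beside r = 0.49 (rho = 0.40) over all tested genes.

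**Figure D2:**
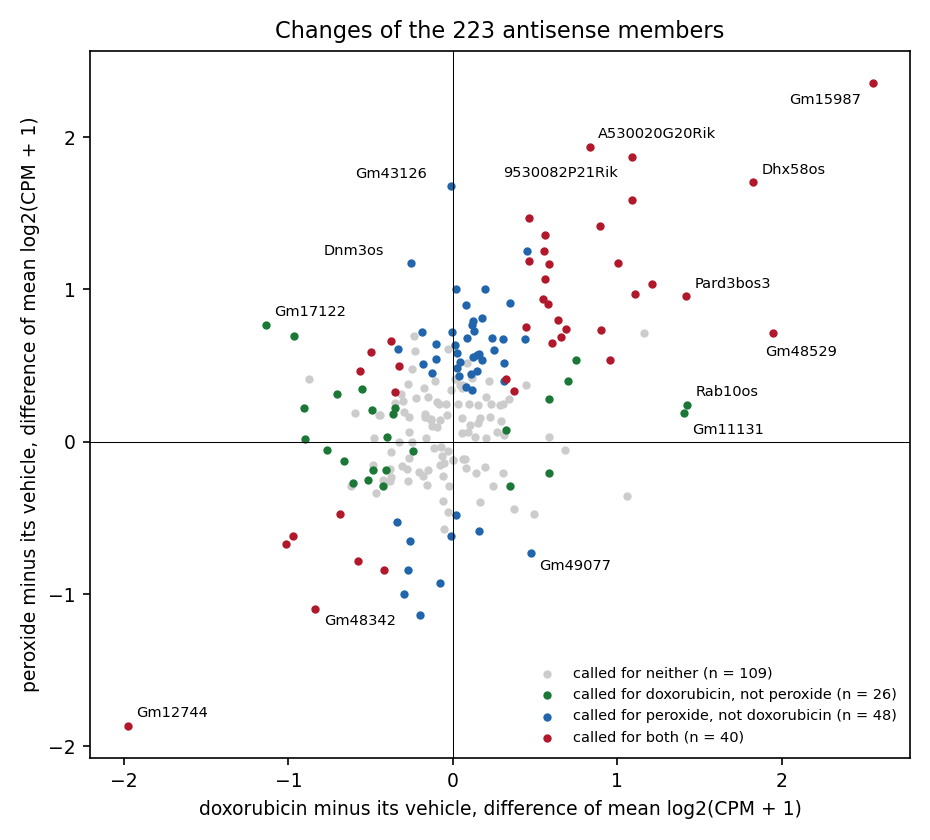
Change of each of the 223 members after doxorubicin (horizontal) and peroxide (vertical), each as a difference of mean log2(CPM + 1) from its own vehicle, coloured by call. Of the 40 members called for both treatments (red), 28 lie at the upper right, led by Gm15987, and 7 at the lower left, led by Gm12744.

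Most members were scarce. Their mean CPM had a median of 1.5, beside 16.3 over all tested genes, and per kb of exon the median was 0.962 CPM. Their median exon length was 1867 bases, 41 had a single exon block, and 13 averaged 10 CPM or more. By GENCODE M21 (GRCm38/mm10), 180 members overlapped exons of a protein-coding gene on the other strand, 29 overlapped such a gene without sharing exons, 8 started within 1000 bases of its start and pointed away, and 6 had no such partner. The same annotation classed 221 members as antisense and 2, Gm9936 and Gm10762, as protein coding, unlike the deposited table.

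The sources used here do not say whether reads were counted by strand. Without strand, reads of a member and of its partner cannot be told apart where they overlap. Of each member's 31-base windows, a median of 18.1% also occurred on the other strand of annotated transcripts; the share was 50% or more for 46 members and 0 for 24. Windows repeated on the same strand passed 20% for 8 members, among them Gm45507 (45.8%) and Gm47428 (39.5%), whose levels are uncertain.

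Called members mostly had a partner that was called in the same direction or not called. A partner was tested for 198 members. After doxorubicin 55 of these members were called; the partner was called in the same direction for 30, in the opposite direction for 2 and not called for 23, where 49.9% of all tested genes were called in either direction. After peroxide 75 were called, with 38 partners in the same direction, 4 in the opposite direction and 33 not called, where 50.7% of all tested genes were called. Across pairs, the changes of member and partner correlated at r = 0.53 after doxorubicin and 0.42 after peroxide. After doxorubicin r was 0.61 in the 121 pairs that share exons but under 50% of windows, 0.42 in the 44 pairs with 50% or more of windows shared, 0.28 in the 25 pairs whose bodies but not exons overlap, and 0.81 in the 8 divergent pairs. After peroxide it was 0.40, 0.37, 0.56 and 0.61 in the same order. Pairs are not independent replicates, and no test was made of these values.

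**Figure D3:**
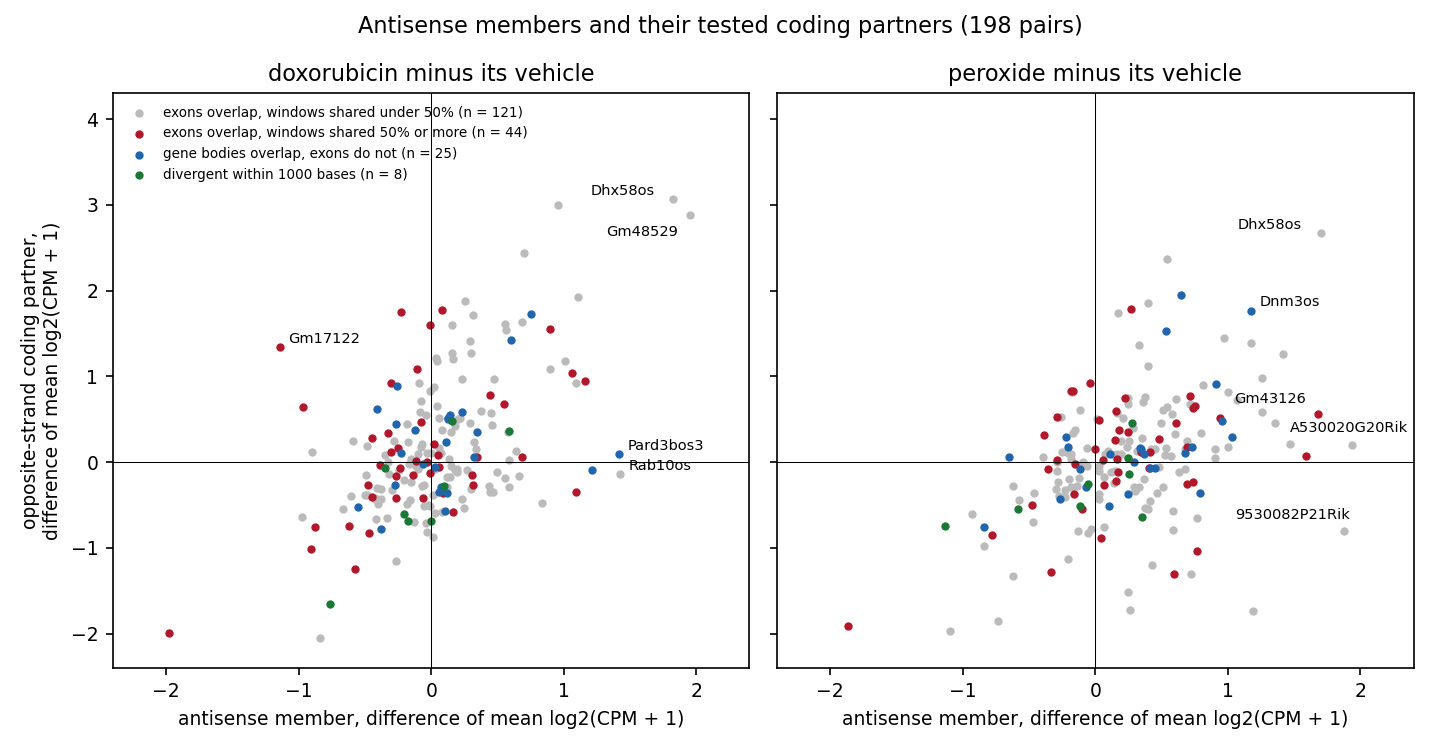
Change of each antisense member (horizontal) and of its coding partner (vertical), as differences of mean log2(CPM + 1), after doxorubicin (left) and peroxide (right), for 198 pairs coloured by how they overlap. Dhx58os and its partner lie at the upper right in both panels, while Gm17122 fell and its partner rose after doxorubicin.

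Among the members that rose in both treatments was the opposite-strand transcript of Dhx58, which codes for LGP2, a receptor of the RIG-I family that senses viral RNA. The gene lies at chr11:100687417-100697520, plus strand, in 6 exons. Dhx58os had 5.32, 4.17 and 4.63 CPM in doxorubicin libraries, against 0.399, 0.638 and 0.797 CPM in their vehicle libraries. It had 4.19, 3.81 and 4.55 CPM in peroxide libraries, against 0.398, 0.875 and 0.529 CPM in theirs. All treated libraries lay above all vehicle libraries, and only treated libraries reached the level of the members. The change was 1.83 ± 0.15 (SE) after doxorubicin (adjusted p = 1.77e-06) and 1.7 ± 0.15 after peroxide (adjusted p = 2.79e-06). Dhx58 averaged 61.1 ± 2.91 CPM after doxorubicin and 6.42 ± 0.403 CPM in vehicle (SD, n = 3 each), and 33.5 ± 10.8 CPM after peroxide and 4.31 ± 0.818 CPM in vehicle. Exons of Dhx58 cover 8.85% of the exon length of Dhx58os.

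The largest increase in both comparisons was that of Gm15987 (chr6:128951204-128975029, minus strand), which overlaps the C-type lectin gene Clec2g without sharing exons. Gm15987 had 5.12, 4.73 and 4.76 CPM in doxorubicin libraries, against 0, 0 and 0 CPM in their vehicle libraries. It had 4.96, 3.74 and 4.3 CPM in peroxide libraries, against 0, 0 and 0.116 CPM in theirs. Treated libraries were all high, and every vehicle library was under the value of 3 reads. Set against the highest 3-read value of the doxorubicin vehicle libraries, the mean of Gm15987 was at least 31.7-fold higher after doxorubicin. The fitted changes, 2.55 ± 0.11 after doxorubicin (adjusted p = 1.43e-08) and 2.36 ± 0.11 after peroxide (adjusted p = 3.36e-08), depend on the added 1 CPM. Gm15987 reached the level of the members through its treated libraries alone, so these p-values are a description. Clec2g stayed under the level filter.

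Pard3bos3, which overlaps the cell polarity gene Pard3b without sharing exons, was also low in vehicle cells. Pard3bos3 had 1.44, 1.54 and 2.24 CPM in doxorubicin libraries, against 0, 0 and 0.0513 CPM in their vehicle libraries. It had 1.53, 1.42 and 1.5 CPM in peroxide libraries, against 0.171, 0.334 and 0.347 CPM in theirs. Treated and vehicle libraries did not overlap, and only treated libraries reached the level of the members. The change was 1.42 ± 0.12 after doxorubicin (adjusted p = 3.41e-06) and 0.95 ± 0.12 after peroxide (adjusted p = 6.77e-05). Pard3b had 0.09 after doxorubicin (adjusted p = 0.602) and rose by 0.48 after peroxide (adjusted p = 0.0147).

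A530020G20Rik, across from the choline transporter-like gene Slc44a3, rose more after peroxide. A530020G20Rik had 10.8, 9.86 and 11.8 CPM in peroxide libraries, against 1.59, 2.56 and 2.16 CPM in their vehicle libraries. It had 4.3, 3.5 and 3.66 CPM in doxorubicin libraries, against 1.94, 1.78 and 1.41 CPM in theirs. No libraries of the compared groups overlapped. The change was 1.94 ± 0.14 after peroxide (adjusted p = 8.32e-07) and 0.83 ± 0.14 after doxorubicin (adjusted p = 0.000568), and the doxorubicin effect minus the peroxide effect was -1.1 ± 0.20 (adjusted p = 0.00263). Slc44a3 was called in neither comparison (adjusted p = 0.422 after peroxide and 0.0655 after doxorubicin).

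Of 9530082P21Rik and BC065403, both called higher after each treatment, the first lies across from Flywch1 and the second across from Zfp280d, both zinc finger genes. 9530082P21Rik averaged 12.8 ± 4.72 CPM after peroxide and 2.68 ± 0.743 CPM in vehicle (1.87, adjusted p = 5.37e-05), and 11.3 ± 0.856 CPM after doxorubicin and 4.82 ± 0.889 CPM in vehicle (1.09, adjusted p = 0.00257). Flywch1 rose by 0.93 after doxorubicin (adjusted p = 0.035) and had -0.81 after peroxide (adjusted p = 0.0598). BC065403 averaged 9.46 ± 0.175 CPM after peroxide and 2.48 ± 0.223 CPM in vehicle (1.59, adjusted p = 1.06e-05), and 8.99 ± 2.29 CPM after doxorubicin and 3.64 ± 0.579 CPM in vehicle (1.09, adjusted p = 0.000201). Zfp280d was called in neither comparison (adjusted p = 0.708 after peroxide and 0.0679 after doxorubicin). Of the windows of BC065403, 53.3% occur on the other strand of annotated transcripts.

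Gm48529 lies across from Tagln, the gene of transgelin, an actin-binding protein of smooth muscle cells and myofibroblasts, whose exons cover 48.9% of it. Gm48529 had 19.9, 16.1 and 18.5 CPM in doxorubicin libraries, against 3.16, 3.66 and 5.22 CPM in their vehicle libraries. It had 23.1, 23.2 and 16.5 CPM in peroxide libraries, against 12.6, 11.8 and 12.3 CPM in theirs. Treated libraries lay above their vehicle libraries in both experiments. The doxorubicin vehicle was lower than the peroxide vehicle (-1.42 ± 0.17, adjusted p = 0.000149). The change was 1.95 ± 0.17 after doxorubicin (adjusted p = 3.18e-06) and 0.71 ± 0.17 after peroxide (adjusted p = 0.0042), with a difference of effects of 1.24 ± 0.24 (adjusted p = 0.0035). Tagln averaged 987 ± 75.7 CPM after doxorubicin and 132 ± 5.34 CPM in vehicle, and 1197 ± 226 CPM after peroxide and 739 ± 56 CPM in vehicle, and its own vehicle groups differed in the same direction (-2.47, adjusted p = 4.37e-07).

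Gm11131, across from H2-Q4, a class I gene of the major histocompatibility complex, was high in doxorubicin libraries only. Gm11131 had 2.1, 1.35 and 2.08 CPM in doxorubicin libraries, against 0.0987, 0.0456 and 0.0513 CPM in their vehicle libraries. It had 0.18, 0.371 and 0.187 CPM in peroxide libraries, against 0.171, 0 and 0.116 CPM in theirs. The 3 doxorubicin libraries stood above all other libraries. The change was 1.41 after doxorubicin and 0.19 after peroxide. No test is given for it, since Gm11131 reached the level of the members through its doxorubicin libraries alone. H2-Q4, under the level filter, had 0.885, 1.25 and 0.733 CPM in doxorubicin libraries, against 0, 0 and 0 CPM in their vehicle libraries; class I genes are near-identical copies, so these reads are uncertain.

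**Figure D4:**
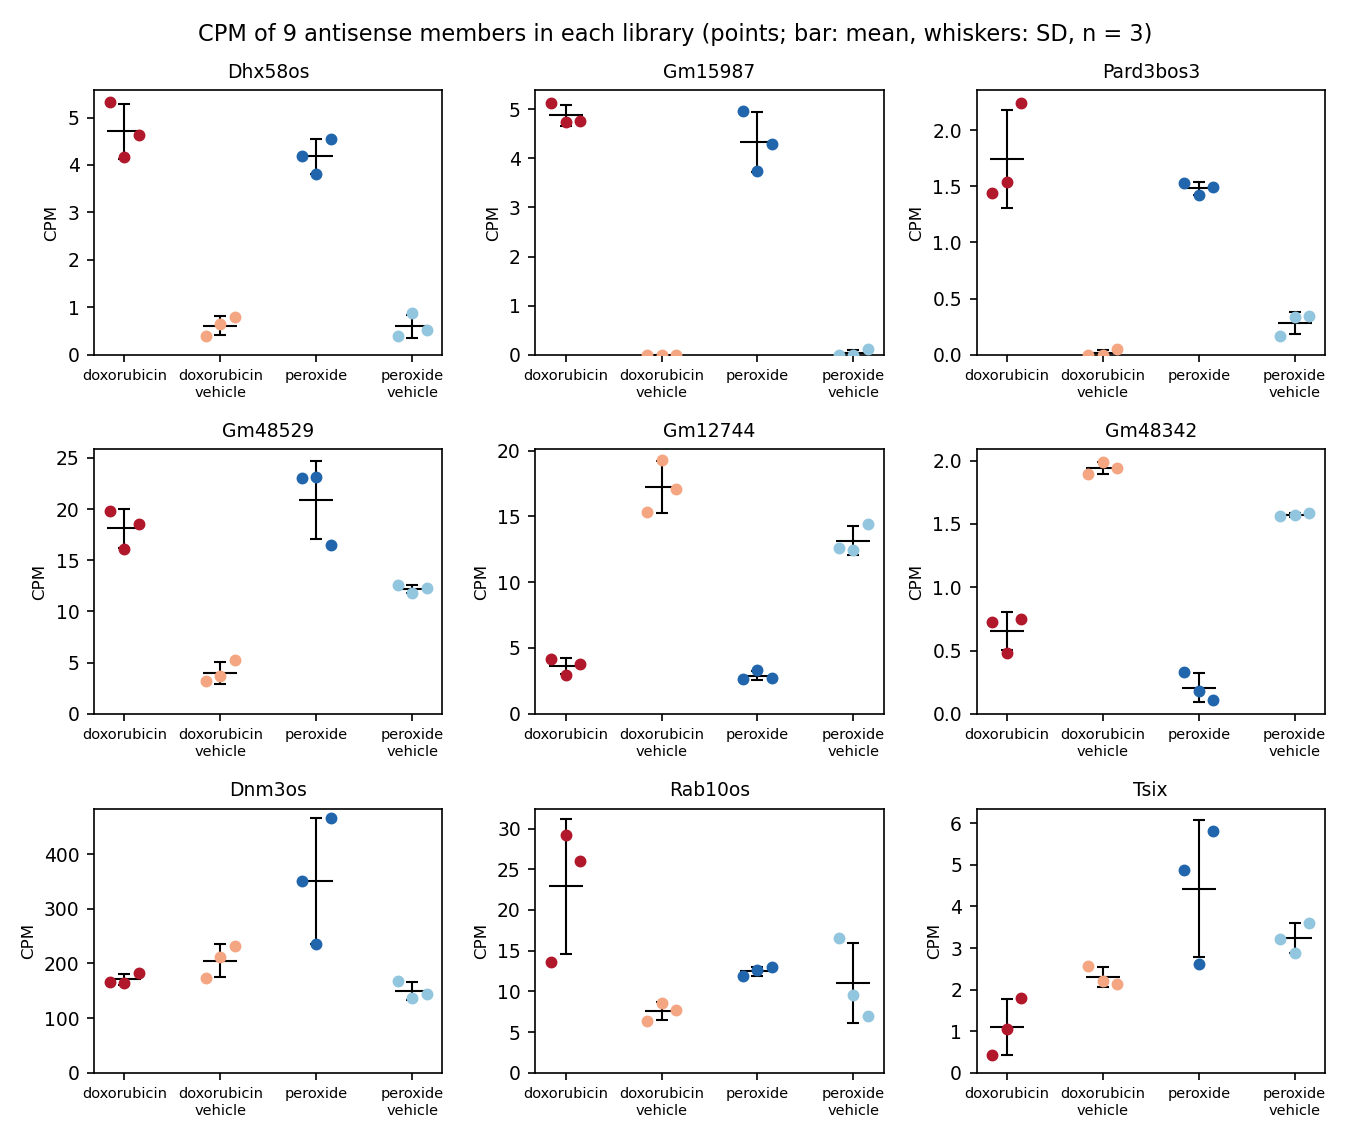
CPM of 9 antisense members in each library (points), with the mean (bar) and SD (whiskers) of 3 libraries, for doxorubicin, its vehicle, peroxide and its vehicle from left to right. Dhx58os, Gm15987, Pard3bos3 and Gm48529 are higher in treated libraries than in their vehicle libraries, Gm12744 and Gm48342 are lower, and Dnm3os reaches 236 to 467 CPM after peroxide.

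Gm12744 and Gm48342 fell in both treatments. Gm12744 had 4.18, 2.95 and 3.77 CPM in doxorubicin libraries, against 15.3, 19.2 and 17.1 CPM in their vehicle libraries. It had 2.65, 3.3 and 2.73 CPM in peroxide libraries, against 12.6, 12.5 and 14.4 CPM in theirs. Treated and vehicle libraries were fully separate. The change was -1.98 ± 0.13 after doxorubicin (adjusted p = 4.7e-07) and -1.86 ± 0.13 after peroxide (adjusted p = 7.34e-07). Since 94.7% of its windows occur on the other strand of annotated transcripts, its own reads cannot be told apart without strand.

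Gm48342 lies across from Hmgcs1, the gene of the enzyme that makes HMG-CoA, whose exons cover 29.3% of it. Gm48342 had 0.728, 0.482 and 0.752 CPM in doxorubicin libraries, against 1.9, 1.99 and 1.94 CPM in their vehicle libraries. It had 0.33, 0.184 and 0.109 CPM in peroxide libraries, against 1.56, 1.57 and 1.59 CPM in theirs. Vehicle libraries varied little, lay above all treated libraries and alone reached the level of the members. The change was -0.84 ± 0.11 after doxorubicin (adjusted p = 8.06e-05) and -1.09 ± 0.11 after peroxide (adjusted p = 9.31e-06). Hmgcs1 had 165, 145 and 151 CPM in doxorubicin libraries, against 621, 652 and 654 CPM in their vehicle libraries, and changed by -2.06 after doxorubicin (adjusted p = 1.56e-09) and -1.97 after peroxide (adjusted p = 4.04e-09).

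For the 28 members whose name ends in os, the name gives the sense gene; all 28 sense genes were in the table and 23 were tested. The sense gene shared exons with 16 of them, overlapped 5 without shared exons and did not overlap 7. Among the last, the GENCODE starts on opposite strands lay 39 bases apart for Tmem147os and 85 for Atad3aos. They lay 95 bases apart for Etaa1os, 166 for Map2k3os and 177 for Brip1os. After doxorubicin 5 of the 28 members rose and 4 fell, while 8 sense genes rose and 5 fell, beside 22.1% higher and 27.8% lower over all tested genes. After peroxide 14 members rose and 3 fell, while 5 sense genes rose and 5 fell, beside 27.3% and 23.4%. Both were called in the same direction for 5 pairs after doxorubicin and 4 after peroxide, and in opposite directions for 0 and 1.

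Prss23os and Egfros rose with their sense genes after doxorubicin. Prss23os, across from the serine protease gene Prss23, averaged 2.66 ± 0.43 CPM after doxorubicin and 0.961 ± 0.176 CPM in vehicle (0.90, adjusted p = 0.00361), and 2.81 ± 1.08 CPM after peroxide and 1.24 ± 0.339 CPM in vehicle (0.73, adjusted p = 0.011). Prss23 rose by 1.55 after doxorubicin (adjusted p = 3.68e-09) and by 0.63 after peroxide (adjusted p = 3.77e-06). Exons of Prss23 cover 54.3% of Prss23os, and 52.6% of its windows occur on the other strand of annotated transcripts. Without strand, reads of the 2 genes cannot be told apart there. Egfros, which overlaps the epidermal growth factor receptor gene without sharing exons, had 2.52, 2.13 and 0.879 CPM in doxorubicin libraries, against 0.493, 0.547 and 0.872 CPM in their vehicle libraries. Its doxorubicin replicate 3 lay just above the highest vehicle library, and the call (0.75 ± 0.24, adjusted p = 0.0218) was lost without doxorubicin replicate 1 or 2 or vehicle replicate 1 or 2 (adjusted p of 0.061 to 0.0765). Egfros reached the level of the members in treated libraries only, so its call is a description. Egfr rose by 1.72 (adjusted p = 8.02e-06).

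Bach2os, Rab26os and Brip1os were lower after doxorubicin. Bach2os, across from the transcriptional repressor gene Bach2, had 0.989, 0.816 and 0.734 CPM in doxorubicin libraries, against 2.58, 2.32 and 3.0 CPM in their vehicle libraries, with no overlap (-0.98 ± 0.15, adjusted p = 0.000323). After peroxide it fell too (-0.62 ± 0.15, adjusted p = 0.00568), while Bach2 fell after doxorubicin (-0.64, adjusted p = 0.00307) and was not called after peroxide (-0.28, adjusted p = 0.123). Bach2os reached the level of the members in vehicle libraries only, so its separation and adjusted p-values are a description. Rab26os, which overlaps the gene of the small GTPase Rab26 without sharing exons, had 3.03, 2.34 and 2.38 CPM in doxorubicin libraries, against 6.07, 6.47 and 6.1 CPM in their vehicle libraries, again separate (-1.01 ± 0.14, adjusted p = 0.000161), and fell after peroxide (-0.67, adjusted p = 0.0025). Brip1os does not overlap Brip1, the gene of a DNA repair helicase; it averaged 65.3 ± 3.51 CPM after doxorubicin and 86.9 ± 2.44 CPM in vehicle (-0.41 ± 0.08, adjusted p = 0.00131), and had -0.19 after peroxide (adjusted p = 0.0678). Brip1 changed by -1.48 after doxorubicin (adjusted p = 1.43e-05) and -1.18 after peroxide (adjusted p = 7.36e-05).

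In other pairs 1 of the genes was called and the other was not; whether their changes differed was not tested. Rab10os, across from the vesicle transport gene Rab10, had 13.6, 29.2 and 26 CPM in doxorubicin libraries, against 6.38, 8.54 and 7.72 CPM in their vehicle libraries. Doxorubicin replicate 1, a library that stood apart, was the lowest of its group and still lay above the vehicle libraries. The change was 1.42 ± 0.30 (adjusted p = 0.00227), with 0.24 ± 0.30 after peroxide (adjusted p = 0.526) and -0.14 ± 0.11 for Rab10 after doxorubicin (adjusted p = 0.297). Rbm3, the gene of a cold-inducible RNA-binding protein, fell after doxorubicin (-1.15, adjusted p = 4.25e-07) and peroxide (-0.76, adjusted p = 1.02e-05), while Rbm3os had -0.27 (adjusted p = 0.114) and 0.06 (adjusted p = 0.717).

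The pair called in opposite directions was Atad3aos and Atad3a, the gene of a mitochondrial membrane ATPase. They do not overlap, but their starts lie 85 bases apart on opposite strands. Atad3aos had 1.67, 1.39 and 1.12 CPM in peroxide libraries, against 0.682, 0.524 and 0.809 CPM in their vehicle libraries. Atad3a had 9.38, 10.2 and 8.32 CPM in peroxide libraries, against 12.6, 14.4 and 14.5 CPM in their vehicle libraries. Groups were separate for both genes, with changes of 0.51 ± 0.14 for Atad3aos (adjusted p = 0.0108) and -0.53 ± 0.12 for Atad3a (adjusted p = 0.00321). Atad3aos reached the level of the members in treated libraries only, so its separation and adjusted p-value are a description.

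Map2k3os, whose start region is printed above, is divergent from Map2k3, a kinase gene upstream of p38 stress signalling. Map2k3os had 2.3, 4.08 and 2.62 CPM in peroxide libraries, against 5.0, 5.24 and 4.45 CPM in their vehicle libraries. Map2k3 had 20.8, 21 and 18 CPM in peroxide libraries, against 30.4, 30.5 and 27.7 CPM in their vehicle libraries. Both were lower in all peroxide libraries, with changes of -0.58 ± 0.19 for Map2k3os (adjusted p = 0.0246) and -0.55 ± 0.10 for Map2k3 (adjusted p = 0.000956). The call of Map2k3os was lost without peroxide replicate 1 or 3 or vehicle replicate 1 or 2 (adjusted p of 0.0635 to 0.0945). After doxorubicin Map2k3 rose (0.48, adjusted p = 0.00225) and Map2k3os had 0.16 (adjusted p = 0.511).

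Several further members of the os group rose after peroxide by less than 1 on the log2 scale. These were Tnfsf13os (0.81, adjusted p = 0.000634), Parvaos (0.73, adjusted p = 0.00408), Tmem147os (0.72, adjusted p = 0.000768), Chrna1os (0.66, adjusted p = 0.00174) and Fbxl12os (0.64, adjusted p = 0.00864). Tnfsf13os reached the level of the members in treated libraries only, so its adjusted p-value is a description. Chrna1os was also lower after doxorubicin (-0.38, adjusted p = 0.0367), a call lost without doxorubicin replicate 2 or 3 or any of its vehicle libraries (adjusted p of 0.0673 to 0.118). Ccdc142os (0.54, adjusted p = 0.0118) and Taco1os (0.43, adjusted p = 0.0163) lost their call without peroxide vehicle replicate 1, at adjusted p of 0.0519 and 0.0704. Mypopos (0.57, adjusted p = 0.0359) lost it without peroxide replicate 1 or 2 or vehicle replicate 1 or 3 (adjusted p of 0.0819 to 0.11). Vax2os was called after peroxide (0.41, adjusted p = 0.0164), except without peroxide replicate 1 or 2 or vehicle replicate 2 (adjusted p of 0.05 to 0.061). It was called after doxorubicin (0.32, adjusted p = 0.0467), except without doxorubicin replicate 2 or 3, peroxide replicate 1 or any vehicle library (adjusted p of 0.0546 to 0.146). Etaa1os, Hk1os, Hoxb3os, Junos, Phtf1os, Rbm3os, Tomm6os and Zeb2os were called in neither comparison.

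Dnm3os, the host of the microRNAs printed above, rose after peroxide. It is a single exon of 7928 bases (chr1:162217623-162225550, plus strand) inside an intron of Dnm3, a dynamin gene, on the other strand. Dnm3os had 352, 236 and 467 CPM in peroxide libraries, against 168, 137 and 145 CPM in their vehicle libraries. It had 165, 165 and 182 CPM in doxorubicin libraries, against 173, 212 and 231 CPM in theirs. Peroxide libraries lay above all other libraries but spread widely, and the lowest was replicate 2, which stood apart. The change was 1.17 ± 0.20 after peroxide (adjusted p = 0.00056) and -0.26 ± 0.20 after doxorubicin (adjusted p = 0.31), with a difference of effects of -1.43 ± 0.29 (adjusted p = 0.0043).

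Dnm3 rose in both treatments. It averaged 9.94 ± 0.727 CPM after peroxide and 2.23 ± 0.436 CPM in vehicle (1.77, adjusted p = 7.54e-07), and 7.6 ± 0.582 CPM after doxorubicin and 3.66 ± 0.457 CPM in vehicle (0.89, adjusted p = 0.000166). Of the windows of Dnm3os, 0.062% occur on the other strand of annotated transcripts, but without strand reads from unspliced Dnm3 cannot be told apart. The hairpin genes Mir199a-2 and Mir214 were listed at 0 CPM in all 12 libraries, and mature microRNAs were not measured.

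**Figure D5:**
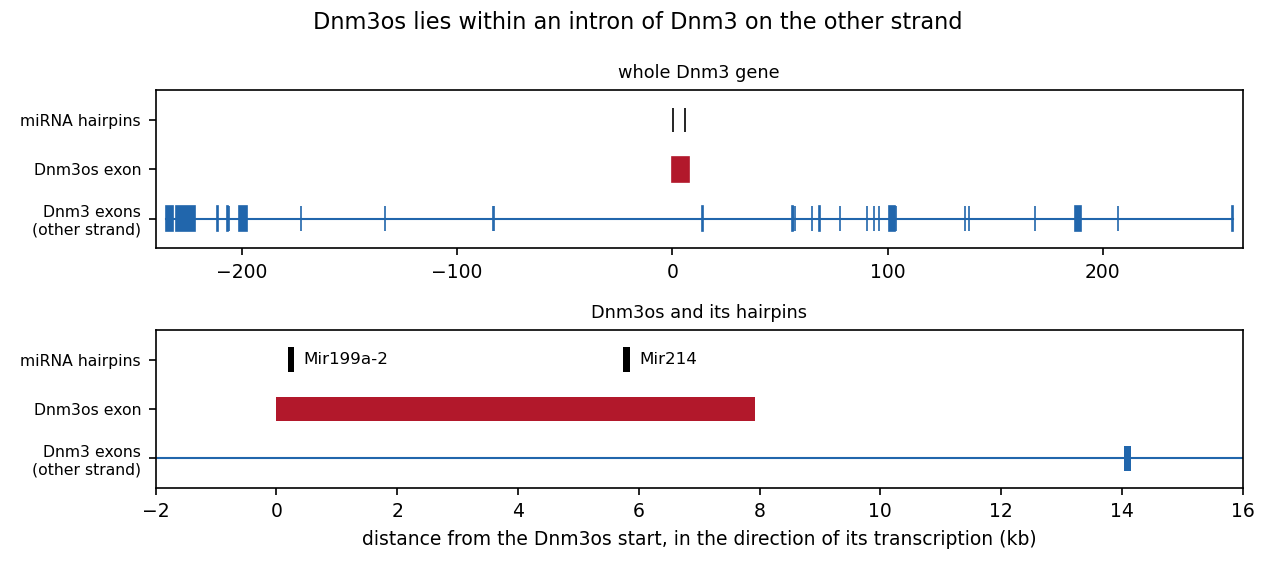
Exons of Dnm3 (blue), the Dnm3os exon (red) and the microRNA hairpins (black), by distance in kb from the Dnm3os start, over all of Dnm3 (top) and around Dnm3os (bottom). Dnm3os ends at 7.927 kb, before the nearest Dnm3 exon at 14.031 kb, and holds Mir199a-2 from 0.191 kb and Mir214 from 5.745 kb.

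The other most abundant members, among them Brip1os described above, changed by less than 0.5 on the log2 scale in either comparison. Gm47428, across from the ferritin light chain copy Ftl1-ps1, averaged 281 ± 36.5 CPM after doxorubicin and 332 ± 24.3 CPM in vehicle, and 227 ± 11.1 CPM after peroxide and 236 ± 5.43 CPM in vehicle. Its doxorubicin call (-0.24, adjusted p = 0.0413) was lost without doxorubicin replicate 2 or 3, vehicle replicate 2 or 3, peroxide replicate 1 or any peroxide vehicle library (adjusted p of 0.0521 to 0.154). Gt(ROSA)26Sor, the transcript of a locus widely used for transgenes in mice, averaged 14.5 ± 1.43 CPM after doxorubicin and 19.9 ± 0.494 CPM in vehicle (-0.43, adjusted p = 0.0112), beside -0.43 for its partner Thumpd3. Gm26782, across from the telomerase-associated gene Tep1, averaged 14.4 ± 1.07 CPM after doxorubicin and 20.6 ± 0.397 CPM in vehicle (-0.49, adjusted p = 0.000558), and its difference of effects was -0.70 (adjusted p = 0.00174). 4933431E20Rik averaged 15 ± 1.53 CPM after doxorubicin and 19.5 ± 2.24 CPM in vehicle (-0.35, adjusted p = 0.0485), a call lost without doxorubicin replicate 2 or 3, doxorubicin vehicle replicate 1 or 3, peroxide replicate 3 or peroxide vehicle replicate 2 or 3 (adjusted p of 0.0522 to 0.165).

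The doxorubicin effect minus the peroxide effect was called higher for 8 members (3.59%), beside 13.5% of all tested genes, and lower for 38 (17.0%), beside 20.1%. Its median was -0.23 for the members and -0.07 for all tested genes. With libraries scaled by median-of-ratios factors, 11 were higher and 29 lower, so the share of calls that were higher was 27.5%, against 17.4% on the deposited scale. The number higher was 5 without doxorubicin vehicle replicate 1 or peroxide vehicle replicate 2, and the number lower was 25 without peroxide vehicle replicate 1.

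Gm17122, with all of its exons over those of Coro1c, the gene of an actin-binding coronin, had the largest difference of effects. Gm17122 had 0.39, 0.092 and 0 CPM in doxorubicin libraries, against 1.82, 1.3 and 1.5 CPM in their vehicle libraries. It had 2.15, 2.1 and 2.15 CPM in peroxide libraries, against 0, 1.3 and 1.7 CPM in theirs. Doxorubicin libraries lay below their vehicle libraries, and peroxide vehicle replicate 1, listed at 0, lay far below the others of its group. The change was -1.14 ± 0.30 after doxorubicin (adjusted p = 0.00837) and 0.77 ± 0.30 after peroxide (adjusted p = 0.0506), with a difference of -1.91 ± 0.42 (adjusted p = 0.0071). Coro1c rose by 1.35 after doxorubicin (adjusted p = 0.00926) and was lower after peroxide (-1.04, adjusted p = 0.0318).

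Gm43126 lies across from Ccnd2, which codes for cyclin D2 of the cell cycle, and 86.7% of it is covered by Ccnd2 exons. Gm43126 had 21.1, 27.6 and 16.8 CPM in peroxide libraries, against 3.84, 6.08 and 9.02 CPM in their vehicle libraries. It had 14.5, 6.08 and 12.4 CPM in doxorubicin libraries, against 7.67, 9.13 and 16 CPM in theirs. Peroxide libraries were separate from their vehicle libraries, and doxorubicin libraries were not. The change was 1.68 ± 0.36 after peroxide (adjusted p = 0.00236) and -0.01 ± 0.36 after doxorubicin (adjusted p = 0.985). Ccnd2 rose by 0.56 after peroxide (adjusted p = 0.000565) and by 1.6 after doxorubicin (adjusted p = 1.91e-07). The difference of effects of Gm43126 (-1.69, adjusted p = 0.0267) was lost without doxorubicin replicate 2, doxorubicin vehicle replicate 3 or peroxide vehicle replicate 1 or 2 (adjusted p of 0.0531 to 0.0641), and was -1.22 (adjusted p = 0.0884) without peroxide replicate 2 and doxorubicin vehicle replicate 3 together.

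Gm45507 fell after doxorubicin together with Bnip3, a gene of mitochondrial turnover induced by low oxygen, whose exons cover 97.1% of it. Gm45507 averaged 0.621 ± 0.104 CPM after doxorubicin and 2.06 ± 0.526 CPM in vehicle (-0.90, adjusted p = 0.000567), and 0.94 ± 0.228 CPM after peroxide and 0.664 ± 0.226 CPM in vehicle (0.22, adjusted p = 0.249). Bnip3 fell after doxorubicin (-1.01, adjusted p = 3.35e-07) and rose after peroxide (0.75, adjusted p = 3.08e-06). The doxorubicin vehicle was above the peroxide vehicle for both, by 0.87 for Gm45507 (adjusted p = 0.0017) and 1.32 for Bnip3 (adjusted p = 5.66e-07).

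Gm12758, across from 4931406P16Rik, had 7.55, 3.3 and 5.14 CPM in doxorubicin libraries, against 9.23, 9.88 and 14.1 CPM in their vehicle libraries. The groups were separate, yet the call (-0.97, adjusted p = 0.0145) was lost without doxorubicin replicate 2 (adjusted p = 0.0619) or vehicle replicate 3 (adjusted p = 0.0595), and without peroxide replicate 2 and doxorubicin vehicle replicate 3 together (adjusted p = 0.0554). Its difference of effects was -1.66 ± 0.40 (adjusted p = 0.0103). Of the windows of Gm12758, 51.8% occur on the other strand of annotated transcripts. 4931406P16Rik was called in neither comparison, with 0.64 after doxorubicin (adjusted p = 0.0861) and -0.25 after peroxide (adjusted p = 0.495). Gm49077, across from the antizyme inhibitor gene Azin1, had 0.315, 0 and 0.46 CPM in peroxide libraries, against 1.25, 1.07 and 0.889 CPM in their vehicle libraries, which did not overlap (-0.73, adjusted p = 0.00907), and a difference of effects of 1.21 ± 0.28 (adjusted p = 0.00836). Azin1 fell after peroxide (-1.85, adjusted p = 0.0202), with the lowest value in replicate 2 (23.3 CPM).

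The other large decreases after peroxide were those of Gm26982, across from the ghrelin gene Ghrl (-1.0, adjusted p = 0.000108), B930036N10Rik, across from the mRNA export gene Alyref2 (-0.93, adjusted p = 0.00339), 2510046G10Rik, across from the SAGA complex gene Sgf29 (-0.84, adjusted p = 0.000552), and 2810001G20Rik, divergent from Cox10, a gene of haem A synthesis (-1.13, adjusted p = 0.0327). Sgf29 fell (-0.98, adjusted p = 0.000121), as did Cox10 (-0.74, adjusted p = 0.000248), Alyref2 was not called (-0.61, adjusted p = 0.186) and Ghrl stayed under the level filter. 2510046G10Rik was also called lower after doxorubicin (-0.42, adjusted p = 0.0321), except without doxorubicin replicate 2 or 3 or vehicle replicate 1 or 2 (adjusted p of 0.0611 to 0.115). 2810001G20Rik had 3.74, 1.64 and 5.61 CPM in peroxide libraries, against 10.2, 8.19 and 7.51 CPM in their vehicle libraries. Its groups were separate, and the call was lost without peroxide replicate 1 or 2 or any peroxide vehicle library (adjusted p of 0.0533 to 0.121); the change was -0.77 without peroxide replicate 2.

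Of a list of 38 described noncoding RNAs, 36 were in the table, 12 had the antisense class and 4 were members: Tsix, Emx2os, Hoxb3os and Zeb2os. After doxorubicin 0 of the 4 rose and 1 fell, with a median of -0.17, beside -0.03 over all tested genes, of which 22.1% rose and 27.8% fell. After peroxide 1 rose and 0 fell, with a median of 0.11, beside -0.01 over all tested genes, of which 27.3% rose and 23.4% fell. Tsix had 0.439, 1.06 and 1.81 CPM in doxorubicin libraries, against 2.58, 2.21 and 2.14 CPM in their vehicle libraries, with no overlap. The call (-0.70 ± 0.26, adjusted p = 0.0403) was lost without doxorubicin replicate 1 or 2, peroxide replicate 1 or any vehicle library (adjusted p of 0.0501 to 0.142).

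Xist, on the other strand of Tsix, had 24.3, 26.8 and 27.6 CPM in doxorubicin libraries, against 30.7, 35.8 and 40.5 CPM in their vehicle libraries, and was also lower (-0.42, adjusted p = 0.0212). Of the windows of Tsix, 34.5% occur on the other strand of annotated transcripts. Emx2os, across from the homeobox gene Emx2, had 11.1, 5.25 and 10.6 CPM in peroxide libraries, against 5.57, 4.57 and 5.43 CPM in their vehicle libraries. Peroxide replicate 2 lay among the vehicle libraries, and the call (0.63 ± 0.24, adjusted p = 0.0433) was lost without peroxide replicate 1 or 3, any peroxide vehicle library, doxorubicin replicate 2 or 3 or doxorubicin vehicle replicate 1 (adjusted p of 0.0519 to 0.157). Emx2 had -0.12 after peroxide (adjusted p = 0.464) and fell after doxorubicin (-0.88, adjusted p = 0.000203), where Emx2os had 0.01 (adjusted p = 0.964).

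Between the vehicle groups, doxorubicin vehicle minus peroxide vehicle, 25 members were higher (15.1% of all tested genes) and 13 lower (12.9%). Experiment and day cannot be told apart in this comparison. The number higher was 12 without doxorubicin vehicle replicate 1, 11 without its replicate 3, 13 without peroxide vehicle replicate 1 and 15 without its replicate 2. The number lower was 6 without doxorubicin vehicle replicate 1 and 5 without peroxide vehicle replicate 2. Gm48529, described above, was the 1 member called with a difference of at least 1. Tmem147os (0.58, adjusted p = 0.00687) and Chrna1os (0.44, adjusted p = 0.0319) were higher in the doxorubicin vehicle.

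The 172 members not named by the rule for named genes averaged 0.615 to 15.01 CPM, with a median of 1.42 CPM. After doxorubicin 24 of them rose, by 0.32 to 1.21, and 15 fell, with changes of -0.90 to -0.33, beside 22.1% and 27.8% of all tested genes. After peroxide 50 rose, by 0.33 to 1.47, and 7 fell, with changes of -0.84 to -0.47, beside 27.3% and 23.4%. Over all 223 members, 17 were listed at 0 in at least 1 library and 81 reached 1 CPM in every library. All 3 libraries were under the value of 3 reads for 3 members in the doxorubicin vehicle (Gm15987, Gm11131 and Pard3bos3), for 3 in the peroxide vehicle (Gm15987, Gm15657 and Gm17276, the last 2 named after their values were seen) and for 0 in either treated group.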

How the data were processed

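RNA of the 12 libraries was extracted with a Qiagen RNeasy kit and sequenced on an Illumina NovaSeq instrument, per the labels' protocols. The authors deposited 1 table of CPM per gene, in which each library has the same total. The tools bcl2fastq and DRAGEN and the mm10 genome are named per the submitters' processing notes, without versions; the annotation release and the strand setting of the counting were not stated in the labels or headers used. Genes appear in several lines of the table where they have several identifiers of another database, so 287 repeated lines were dropped, none with other values. Depth was estimated from the smallest step of the CPM values. Only 74.6% to 79.8% of low values came out whole within 0.001 reads, so reads were not recovered and no count test was run. Counting error alone sets the floor of 3 reads.

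Log2(CPM + 1) values of the 13280 genes with 1 CPM in at least 3 libraries were fitted over the 4 groups with limma 3.58.1 in R 4.3.3 (moderated variance with a trend, 8 residual degrees of freedom, two-sided tests, Benjamini-Hochberg adjustment over all tested genes). A pseudocount of 1 makes log2 changes of scarce genes smaller than their fold. The fit was tested on simulated data. Positions and partners came from GENCODE M21, in which all 223 members were found, and sequences from RefSeq, whose starts can differ. Genes named were all members ending in os, the 6 largest called increases and decreases per treatment, the 6 most abundant, the 3 largest called differences of effects in each direction, and members of a list of described RNAs, each with its partner; 1 partner and 1 marker list are not reported here. Members and lists were chosen with earlier results of these data known. Alternatives changed the pseudocount, filter, scaling, variance model, threshold, library weights, replicate block, separate fits and libraries left out.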

Additional observations from a re-analysis of the deposited data

Results flagged for a closer look

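For 17 of the 51 named members the doxorubicin and peroxide effects differed, by the limma test of the doxorubicin effect minus the peroxide effect. The named members include the 3 largest called differences in each direction and the largest changes of each treatment. The 17 are thus partly fixed by that choice and have no background share to compare with. They include Gm11131 and Tnfsf13os, which reached the level of the members in treated libraries only. For these members the level rule and the test used the same values, so their place among the 17 is a description. Over all 223 members, 46 were called (20.6%), beside 33.6% of all tested genes. Groups of 3 libraries are too small for a check of single libraries that lie far from the others.

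The difference was negative for 12 of the 17. Dnm3os at -1.43 (adjusted p = 0.0043), the host of the Mir199a-2 and Mir214 hairpins, was among them, as were Gm17122 at -1.91 (adjusted p = 0.0071), Gm43126 at -1.69 (adjusted p = 0.0267), Gm12758 at -1.66 (adjusted p = 0.0103), Gm45507 at -1.13 (adjusted p = 0.0036), A530020G20Rik at -1.10 (adjusted p = 0.00263) and Gm26782 at -0.70 (adjusted p = 0.00174). Of the members named with os, Chrna1os at -1.04 (adjusted p = 0.0028), Tmem147os at -0.91 (adjusted p = 0.00453), Fbxl12os at -0.75 (adjusted p = 0.036) and Tnfsf13os at -0.63 (adjusted p = 0.0332) had a negative difference. The last was 4933431E20Rik at -0.58 (adjusted p = 0.0392). Chrna1os fell after doxorubicin and rose after peroxide, while Tmem147os, Fbxl12os and Tnfsf13os rose after peroxide and were not called after doxorubicin.

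The difference was positive for Gm48529 at 1.24 (adjusted p = 0.0035), Gm11131 at 1.22, Gm49077 at 1.21 (adjusted p = 0.00836), B930036N10Rik at 0.85 (adjusted p = 0.0474) and Gm26982 at 0.70 (adjusted p = 0.019). Gm48529 rose in both treatments, Gm11131 entered the members through its doxorubicin libraries alone, so no test is given for it, and Gm49077, B930036N10Rik and Gm26982 fell after peroxide.

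The difference was no longer called in 8 of the 12 fits without 1 library for B930036N10Rik (adjusted p of 0.0725 to 0.107), Fbxl12os (0.0505 to 0.0861), Tnfsf13os (0.0575 to 0.0806) and 4933431E20Rik (0.0587 to 0.0925), and in 4 of the 12 for Gm43126 (0.0531 to 0.0641). The vehicle groups also differed for Gm48529, Gm12758, Gm45507, Gm49077, B930036N10Rik, Tmem147os, Chrna1os and 4933431E20Rik. The part of that difference in these values was not tested.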

How the results depend on the processing

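Counts of called members are given as higher and lower, after doxorubicin (36 and 30 as reported), after peroxide (71 and 17), for the difference of effects (8 and 38) and between vehicle groups (25 and 13). A threshold of 0.01 gave 22 and 16, 48 and 11, 3 and 18, and 6 and 5. A filter of 5 CPM, which 42 members pass, gave 13 and 12, 20 and 5, 2 and 11, and 9 and 5. No filter gave 29 and 19, 54 and 12, 3 and 20, and 7 and 7. Library weights, whose estimate stopped short of its convergence tolerance, gave 49 and 51, 80 and 22, 16 and 60, and 48 and 27. Median-of-ratios scaling gave 40 and 22, 69 and 18, 11 and 29, and 23 and 12. Upper-quartile scaling gave 35 and 29, 75 and 16, 8 and 40, and 26 and 10, and no trend 37 and 31, 73 and 18, 12 and 38, and 30 and 15. A pseudocount of 0.1 gave 34 and 29, 65 and 17, 8 and 36, and 28 and 13, and one of 2 gave 36 and 29, 72 and 17, 11 and 37, and 22 and 12. Separate fits gave 36 and 28 after doxorubicin and 68 and 16 after peroxide. Without peroxide replicate 2 and doxorubicin vehicle replicate 3 the counts were 36 and 24, 68 and 16, 6 and 30, and 14 and 14, and without doxorubicin replicate 1 as well they were 36 and 30, 69 and 18, 11 and 38, and 18 and 16. Leaving out 1 library at a time gave 31 to 39 and 19 to 31, 57 to 73 and 14 to 18, 5 to 12 and 25 to 40, and 11 to 30 and 5 to 17. A stricter threshold and, under the filter of 5 CPM, fewer members tested lower the counts by construction. For the other alternatives the cause was not tested. Shares of all tested genes under the alternatives are not given, so a shift of the members cannot be told from a shift of all genes.

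Deviations from the group means of same-numbered libraries correlated at -0.595 to 0.394, without a common sign. With 3 libraries per group this cannot settle whether replicate numbers pair the libraries. The fit with the replicate block gave 35 and 28, 68 and 17, 6 and 30, and 19 and 11.

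Of 98 calls of named genes, 77 were kept without each single library and 21 were lost without at least 1. No value of a named gene that was called changed sign under any alternative. Members near 1 CPM rest on few reads, which limits their precision.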
